A study of Mus musculus with 10 samples.

Results

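The enzymes that make fatty acids from citrate, lengthen them and give them their double bond were followed on 10 Affymetrix arrays of 3T3-L1 cells, an established mouse line of preadipocytes, after an siRNA against the histone demethylase LSD1. The set held 10 genes chosen by symbol: Acly, Acaca, Acacb, Fasn, Me1, Thrsp, Elovl6, Scd1, Scd2 and Acsl1. Every probe set annotated with one of these symbols was taken, which gave 24 of the 45037 probe sets and 9 of the 10 genes. Acsl1, which activates long-chain fatty acids with coenzyme A, matched no probe set by symbol and was not analysed here. All 9 genes were bright enough to be tested among 13644 of 18193 genes, and 19 of their 24 probe sets had a mean above 18.4 intensity units, the level under which genes were set aside as dim.

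The groups were siLsd1 cells at 24 h (2 arrays), siC cells at 24 h (2 arrays), siLsd1 cells at 48 h (3 arrays) and siC cells at 48 h (3 arrays), where siC is a scrambled control siRNA and each siRNA was given at 60 nM. All cells were undifferentiated preadipocytes in calf serum, and the medium was not changed after transfection. The 24 h cells were of passage 19 and the 48 h cells of passage 21, so time and passage cannot be told apart. One cell line was used. The labels call the replicates biological without saying what separates them, so a p-value here speaks of the spread among these arrays.

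Fatty acid synthesis starts in the cytosol, where ATP citrate lyase (Acly) splits citrate into acetyl-CoA, acetyl-CoA carboxylase (Acaca, with Acacb at the mitochondrial surface) makes malonyl-CoA, and fatty acid synthase (Fasn) joins these units into palmitate. Malic enzyme (Me1) supplies NADPH for this, Elovl6 lengthens palmitate to stearate, and the stearoyl-CoA desaturases Scd1 and Scd2 turn stearate into oleate. The transcripts of these enzymes rise when preadipocytes become fat cells, with SREBP, ChREBP and LXR as the known activators.

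Array medians ran from 35.6 to 40.6 intensity units, and precision is limited by how few arrays a group has. Kdm1a, which encodes LSD1, averaged 986 ± 21.2 in siLsd1 cells and 1590.0 ± 43.2 in siC cells at 24 h (SD, n = 2 each, adjusted p = 0.0473). At 48 h it averaged 1195 ± 258 in siLsd1 cells and 1719 ± 107 in siC cells (SD, n = 3 each, adjusted p = 0.0338). Replicate 3 of siLsd1 at 48 h stood apart from its group. Over 6943 brighter genes, its log2 differences from the other two replicates had SDs of 0.441 and 0.439, against 0.0892 to 0.205 for all other pairs within a group, and its Kdm1a intensity was 897, against 1352 and 1336 in the other two. Without this array the log2 change of Kdm1a was -0.69 at 24 h and -0.35 at 48 h (adjusted p = 4.81e-05 and 0.00277), against -0.69 and -0.55 with it, and values without it are given beside the results on the enzymes below.

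Of 11 preadipocyte and fibroblast genes with a probe set, 10 were bright enough to be tested and Cd34 was dim. Vim, Col1a2 and Col3a1 were bright on all arrays, with group means between 11985 and 14110. The summed intensity of the 11 genes was lower with siLsd1, at 59243 to 59265 on siLsd1 arrays and 65472 to 67298 on siC arrays at 24 h, and at 49285 to 64833 on siLsd1 arrays and 69647 to 70663 on siC arrays at 48 h. Of the 10 tested genes, Thy1 fell at each time, and 4 (Thy1, S100a4, Pdgfrb and Dlk1) fell and 0 rose in the mean of both times, at -0.83, -0.73, -0.56 and -0.26 on the log2 scale. Of all genes, 2.79% were called lower at 24 h and 6.67% at 48 h. In the mean of both times 13.7% of all genes were called lower and 10.1% higher. Without siLsd1 48 h replicate 3, 5 of the 10 were called lower at 24 h, against 15.3% of all genes. At 48 h 3 were, against 9.96% of all genes, and in the mean of both times 6 were, against 19.3%. In these 3 comparisons 0 were called higher. Thy1, a surface protein of fibroblasts, averaged 694 in siLsd1 cells and 1231 in siC cells at 24 h, and 596 in siLsd1 cells and 1050.0 in siC cells at 48 h (adjusted p = 0.0112 and 0.00412).

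Of 9 mature adipocyte genes with a probe set, 4 (Lep, Cidec, Retn and Pck1) were dim, and Adipoq averaged 29.9 to 54.7 over the 4 groups. Lpl was bright, with group means of 8820 to 9167. Dgat2 had 84.7, 101 and 198 in siLsd1 cells at 48 h, against 82.9, 85.2 and 68.8 in siC cells. Neither Lpl nor Dgat2 was called with siLsd1. The summed intensity of these 9 genes was 10479 to 10686 on siLsd1 arrays and 12807 to 12920 on siC arrays at 24 h. At 48 h the sum was 11640 to 11936 on siLsd1 arrays and 14020 to 14567 on siC arrays. Lpl and Fabp4 made up most of these sums. Fabp4 averaged 1467 in siLsd1 cells and 3540 in siC cells at 24 h, and 2387 in siLsd1 cells and 5059 in siC cells at 48 h. Fabp4, the fatty acid carrier of fat cells, was the 1 called gene of the 5 tested at each time. Of all genes, 2.79% were called lower at 24 h and 6.67% at 48 h. The log2 changes of Fabp4 were -1.28 at 24 h and -1.16 at 48 h (adjusted p = 0.0358 and 0.0183, and -0.81 at 48 h without siLsd1 replicate 3). The part of either marker list in the results below was not tested. Ptprc, which defines leukocytes, was dim, while the other 5 of the 6 macrophage and leukocyte genes were above the dim level, Cd14 the brightest with group means of 342 to 414. The sum of the 6 was 658 to 748 on siLsd1 arrays and 592 to 609 on siC arrays at 24 h, and 683 to 747 on siLsd1 arrays and 640 to 678 on siC arrays at 48 h. None of the 5 was called with siLsd1, where 5.39% of all genes were called at 24 h and 12.7% at 48 h. Cd14 was called higher at 24 h without siLsd1 48 h replicate 3 (0.27, adjusted p = 0.0167), where 10.1% of all genes were. Of 4 endothelial genes Pecam1 and Cdh5 were dim and Tek and Kdr were above the dim level, with sums of 94.4 to 129 on siLsd1 arrays and 85.8 to 151 on siC arrays over both times, and of 4 epithelial genes Epcam, Cdh1 and Krt18 were dim. In bulk RNA, fewer cells of a kind and less RNA per cell cannot be told apart.

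The sequences before the start sites are shown for 4 members, Elovl6, Acly, Fasn and Me1. Elovl6 was lower with siLsd1, and Me1 was on the higher side with siLsd1. Acly, Fasn and Me1 were called lower over time in siC cells. The 4 are not separate classes of response. Elovl6 also had a log2 change of -0.56 over time in siC cells, and Acly had -0.40 with siLsd1 at 24 h, neither called. Each is the 250 bases upstream of a start annotated by RefSeq on mouse GRCm38.p6, 5′ to 3′ on the gene's strand: chr3:129532136-129532385 (plus) for Elovl6, chr11:100528001-100528250 (minus) for Acly, chr11:120824548-120824797 (minus) for Fasn and chr9:86695915-86696164 (minus) for one of the annotated starts of Me1. Capitals mark matches, on either strand, to the E-box CACGTG, the sterol element TCACNCCAC, the CCAAT box and the GC box GGGCGG, the motifs known from lipogenic promoters.
Elovl6: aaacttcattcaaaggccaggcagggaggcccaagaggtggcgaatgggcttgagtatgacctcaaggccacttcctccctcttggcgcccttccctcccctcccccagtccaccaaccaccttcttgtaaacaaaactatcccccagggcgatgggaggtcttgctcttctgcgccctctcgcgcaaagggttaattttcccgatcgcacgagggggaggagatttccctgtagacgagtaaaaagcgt
Acly: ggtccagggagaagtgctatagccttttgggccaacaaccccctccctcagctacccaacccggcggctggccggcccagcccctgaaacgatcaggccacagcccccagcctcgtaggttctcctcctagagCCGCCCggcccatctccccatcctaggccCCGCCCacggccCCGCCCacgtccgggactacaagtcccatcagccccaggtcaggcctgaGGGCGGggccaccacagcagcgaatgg
Fasn: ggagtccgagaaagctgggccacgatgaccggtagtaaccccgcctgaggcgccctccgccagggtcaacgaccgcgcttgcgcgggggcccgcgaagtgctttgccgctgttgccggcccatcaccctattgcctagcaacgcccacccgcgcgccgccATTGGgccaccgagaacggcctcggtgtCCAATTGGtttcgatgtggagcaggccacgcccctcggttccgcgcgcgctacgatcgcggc
Me1: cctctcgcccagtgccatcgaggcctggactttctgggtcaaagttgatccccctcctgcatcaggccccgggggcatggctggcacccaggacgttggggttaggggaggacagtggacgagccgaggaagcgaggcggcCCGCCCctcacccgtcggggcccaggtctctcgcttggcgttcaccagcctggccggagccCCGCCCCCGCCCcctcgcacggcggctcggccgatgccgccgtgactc

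The Elovl6 window held none of these motifs. The Acly window held 4 GC boxes, at 117, 88, 76 and 27 bases before the start. The Fasn window held 3 CCAAT boxes, at 90, 62 and 59 bases before the start, with the matches at 62 and 59 lying over each other on opposite strands. The Me1 window held 3 GC boxes, at 109, 48 and 42 bases before the start. Over the 8 windows found for 7 members, 4 held a CCAAT box and 2 a GC box, and 0 held the E-box or the sterol element. Among 32851 RefSeq windows of the same length, 33.8% held a CCAAT box, 32.7% a GC box, 6.02% the E-box and 1.05% the sterol element. A match describes letters in the window and no match says only that these letters are not in it.

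With siLsd1 at 24 h, 8 of the 9 genes had lower intensities on both siLsd1 arrays than on either siC array, and Me1 had higher ones. Elovl6 showed the largest change of the 9, a log2 change of -1.07, and Acacb, Scd1 and Scd2 followed at -0.66, -0.57 and -0.57. None of the 9 passed the test over all genes at 24 h (0 of 9 by limma, against 5.39% of all 13644 genes called in either direction and 2.79% called lower). Unadjusted p-values under 0.05 were reached by 6 of the 9 and by 22.5% of all genes. Non-overlap with lower siLsd1 arrays, which 8 of 9 members showed, was met by 33.9% of all genes. Non-overlap with higher siLsd1 arrays, which Me1 showed, was met by 27.5% of all genes. Taken either way, non-overlap was met by all 9 members and by 61.4% of all genes. The median log2 change was -0.40 over the 9 genes and -0.02 over all genes tested.

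With siLsd1 at 48 h, Elovl6 fell and was called (1 of 9 lower, against 6.67% of all genes called lower and 12.7% called in either direction), and 0 of 9 were called higher, against 6% of all genes. Elovl6 had lower intensities on all siLsd1 arrays than on any siC array, as 20.9% of all genes did, and Me1 had higher ones, as 16.6% of all genes did. For the other 7 genes the arrays of the groups overlapped. The median log2 change was -0.19 over the 9 genes and -0.02 over all genes tested.

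Averaged over both times, 4 of the 9 genes fell with siLsd1 and 0 rose, where 13.7% of all genes were called lower and 10.1% higher. These were Elovl6, the desaturases Scd1 and Scd2, and Acacb, the carboxylase whose product also holds back fatty acid oxidation. The median log2 change was -0.28 over the 9 genes and -0.02 over all genes.

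**Figure D1:**
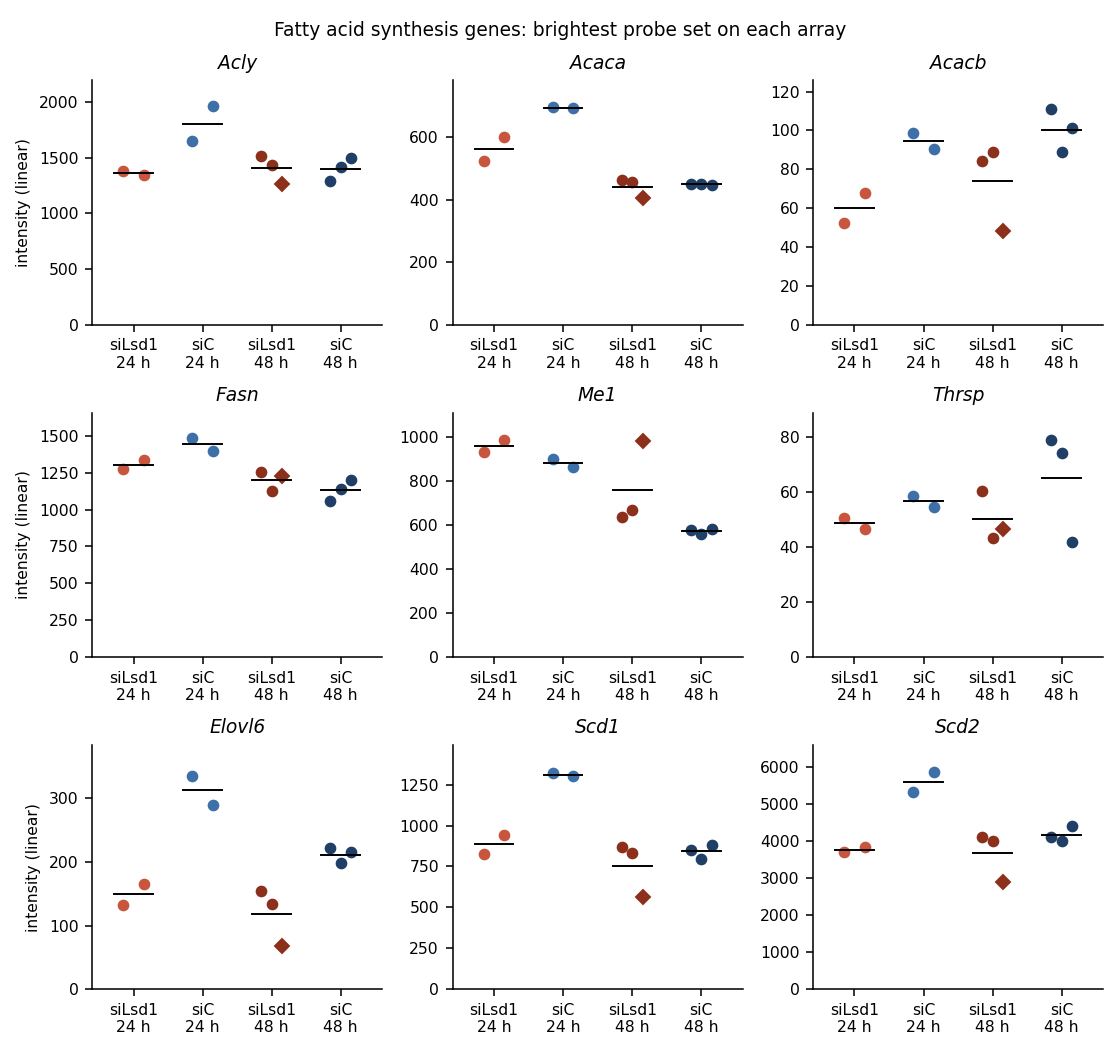
Intensity (linear, arbitrary units) of the brightest probe set of each measured member on every array, one panel per gene; points are arrays, bars are group means, and the diamond is siLsd1 48 h replicate 3. Elovl6 lay between 67.9 and 166 on the 5 siLsd1 arrays and between 198 and 336 on the 5 siC arrays.

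Elovl6, the elongase that acts on palmitate, had intensities of 133 and 166 in siLsd1 cells at 24 h, against 336 and 289 in siC cells. At 48 h it had 154, 135 and 67.9 in siLsd1 cells, against 222, 198 and 216 in siC cells. All siLsd1 arrays were below all siC arrays, and the siLsd1 groups of the 2 times overlapped each other. The log2 change was -1.07 ± 0.31 (SE, 2.10-fold lower, adjusted p = 0.0795) at 24 h and -0.92 ± 0.26 (SE, 1.89-fold lower, adjusted p = 0.0448) at 48 h. Averaged over both times it was -0.99 ± 0.20 (SE, 1.99-fold lower, adjusted p = 0.00819), a change that 0.74% of all genes went below. By group mean the order was siC at 24 h (313), siC at 48 h (212), siLsd1 at 24 h (149) and siLsd1 at 48 h (119).

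The 48 h call of Elovl6 was lost when any one of 7 arrays was left out (each of the 5 siC arrays and both siLsd1 24 h arrays), with adjusted p up to 0.117. Without siLsd1 48 h replicate 3 the log2 change at 48 h was -0.55 (1.47-fold lower, adjusted p = 0.00927), where 9.96% of all genes were called lower. The call for the mean of both times held with each of the 10 arrays left out.

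Scd1, the desaturase that makes oleate, had 828 and 943 in siLsd1 cells at 24 h, against 1319 and 1299.9 in siC cells. Its 48 h values were 867, 832 and 562 in siLsd1 cells, against 852, 798 and 881 in siC cells. The 24 h groups lay apart, and at 48 h replicate 3 alone of the siLsd1 arrays was below the siC range. The log2 change was -0.57 ± 0.18 (SE, adjusted p = 0.0978) at 24 h, -0.19 ± 0.15 (SE, adjusted p = 0.416) at 48 h and -0.38 ± 0.12 (SE, 1.30-fold lower, adjusted p = 0.0407) in the mean of both times. By group mean siC at 24 h (1310, in units of intensity) was highest, and the ranges of siLsd1 at 24 h (885) and siC at 48 h (843) overlapped, as did those of siC and siLsd1 at 48 h (754).

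Scd2, a second desaturase of the same reaction, had 3699 and 3850 in siLsd1 cells at 24 h, against 5330 and 5854 in siC cells. The 48 h arrays gave 4101, 4015 and 2904 in siLsd1 cells, against 4106, 3998 and 4410 in siC cells. As for Scd1, the groups lay apart at 24 h, and at 48 h replicate 3 alone of the siLsd1 arrays was below the siC range. The log2 change was -0.57 ± 0.14 (SE, 1.48-fold lower, adjusted p = 0.0503) at 24 h, -0.20 ± 0.12 (SE, adjusted p = 0.272) at 48 h and -0.38 ± 0.09 (SE, 1.30-fold lower, adjusted p = 0.0162) in the mean of both times. The call in the mean was lost without siC 24 h replicate 2 or without either siLsd1 24 h array, with adjusted p up to 0.073, and that of Scd1 was lost without any one of the 5 siC arrays or either siLsd1 24 h array, with adjusted p up to 0.154.

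Acly, the source of cytosolic acetyl-CoA, had 1379 and 1344 in siLsd1 cells at 24 h, against 1647 and 1960.4 in siC cells. At 48 h it had 1518, 1433 and 1268 in siLsd1 cells, against 1286, 1418 and 1499 in siC cells. The groups lay apart at 24 h and overlapped at 48 h, and neither change was called (log2 change -0.40 ± 0.12 SE, adjusted p = 0.08 at 24 h, and 0.00 ± 0.10 SE, adjusted p = 0.984 at 48 h). The name of this probe set ends in _x_at, by which Affymetrix marks sets whose probes can also match other sequences. A second probe set of Acly, without that mark, had log2 changes of -0.40 at 24 h and -0.00 at 48 h, also not called.

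Acaca, the cytosolic acetyl-CoA carboxylase, had 523 and 601 in siLsd1 cells at 24 h, against 697 and 694 in siC cells. Its 48 h values were 464, 456 and 405 in siLsd1 cells, against 450.5, 452 and 448 in siC cells. The 24 h siLsd1 arrays were lower and the 48 h groups overlapped, with log2 changes of -0.31 ± 0.11 (SE, adjusted p = 0.119) and -0.03 ± 0.09 (SE, adjusted p = 0.841).

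Acacb had 52.2 and 68.0 in siLsd1 cells at 24 h, against 98.6 and 90.4 in siC cells. The 48 h arrays gave 84.1, 88.9 and 48.4 in siLsd1 cells, against 111, 88.7 and 101 in siC cells. The 24 h groups lay apart and the 48 h groups overlapped, with siLsd1 replicate 2 just above siC replicate 2. The log2 change was -0.66 ± 0.28 (SE, adjusted p = 0.19) at 24 h, -0.49 ± 0.23 (SE, adjusted p = 0.167) at 48 h and -0.58 ± 0.18 (SE, 1.49-fold lower, adjusted p = 0.0414) in the mean of both times. That last call was lost without any one of the 5 siC arrays or either siLsd1 24 h array, with adjusted p up to 0.161, and its second, dimmer probe set had a change of 0.08 in the mean of both times (SE 0.27).

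Fasn, the synthase itself, had 1274 and 1337 in siLsd1 cells at 24 h, against 1485 and 1397 in siC cells. At 48 h it had 1254, 1126 and 1225 in siLsd1 cells, against 1055, 1141 and 1201 in siC cells. Its log2 change was -0.14 ± 0.09 (SE, 95% interval -0.35 to 0.07, adjusted p = 0.41) at 24 h and 0.09 ± 0.08 (SE, 95% interval -0.08 to 0.26, adjusted p = 0.476) at 48 h, and the 48 h groups overlapped.

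Me1 was the one member with higher intensities on all siLsd1 arrays of each time than on the siC arrays of that time. Of all genes, 27.5% had such higher siLsd1 arrays at 24 h and 16.6% at 48 h. It had 928 and 987 in siLsd1 cells at 24 h, against 898 and 861 in siC cells. Its 48 h values were 635, 665 and 978 in siLsd1 cells, against 574, 557 and 583 in siC cells. The log2 change was 0.12 ± 0.17 (SE, adjusted p = 0.731) at 24 h and 0.38 ± 0.14 (SE, adjusted p = 0.0999) at 48 h, neither called, with replicate 3 far above the other two. A second Me1 probe set had 515, 541 and 640.1 in siLsd1 cells at 48 h, against 386, 401 and 437 in siC cells. In the fit of all 45037 probe sets it was called higher (log2 change 0.47 ± 0.10 SE, adjusted p = 0.0377). Of all probe sets, dim ones included, 1.81% were called higher there. Of the genes above the dim level, 6% were called higher in the main fit.

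Thrsp, a small protein that acts with the carboxylase in lipogenic cells, had 50.8 and 46.6 in siLsd1 cells at 24 h, against 58.9 and 54.8 in siC cells. The 48 h arrays gave 60.6, 43.4 and 46.8 in siLsd1 cells, against 79.1, 74.2 and 41.9 in siC cells. The lowest 48 h value was that of siC replicate 3, the groups overlapped, and the log2 changes were not called (-0.22 ± 0.29 SE, adjusted p = 0.704 at 24 h, and -0.33 ± 0.24 SE, adjusted p = 0.372 at 48 h). A second, dimmer Thrsp probe set had log2 changes of the opposite sign, 0.11 at 24 h and 0.42 at 48 h, also not called.

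**Figure D2:**
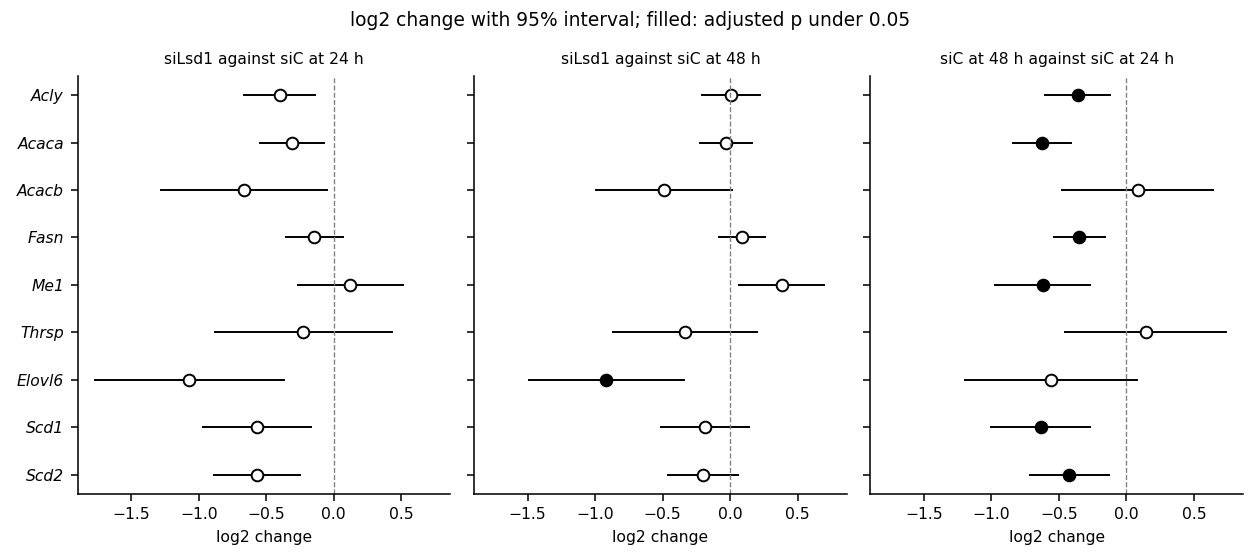
Log2 change (horizontal axis) of each member's brightest probe set with siLsd1 at 24 h (left) and at 48 h (middle), each against siC, and over time in siC cells, 48 h against 24 h (right); bars are 95% intervals of the limma fit and filled points have an adjusted p under 0.05. At 48 h Elovl6 was the called member with siLsd1, and 6 members were called lower over time in siC cells.

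The pathway's values differed between the siLsd1 arrays of 48 h. Taken as the median over the 9 genes of each array's log2 difference from the siC mean of its time, siLsd1 arrays stood at -0.41 and -0.42 at 24 h, and at 0.04, -0.02 and -0.42 for replicates 1, 2 and 3 at 48 h. The medians over all genes on these 5 arrays lay between -0.03 and -0.00. By this median replicate 3 was as low as the 24 h siLsd1 arrays, but not gene by gene. Its differences for Scd1 (-0.58) and Scd2 (-0.52) lay near those of the 24 h arrays, while Elovl6 (-1.64) and Acacb (-1.05) were further below siC, Acly (-0.14) was less far below, and Fasn (0.12) and Me1 (0.78) were above siC. Replicates 1 and 2 were below siC for Elovl6, at -0.46 and -0.65. Across the whole array, too, replicate 3 had smaller log2 differences from the siLsd1 24 h arrays (SDs of 0.361 and 0.353) than from its own replicates.

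**Figure D3:**
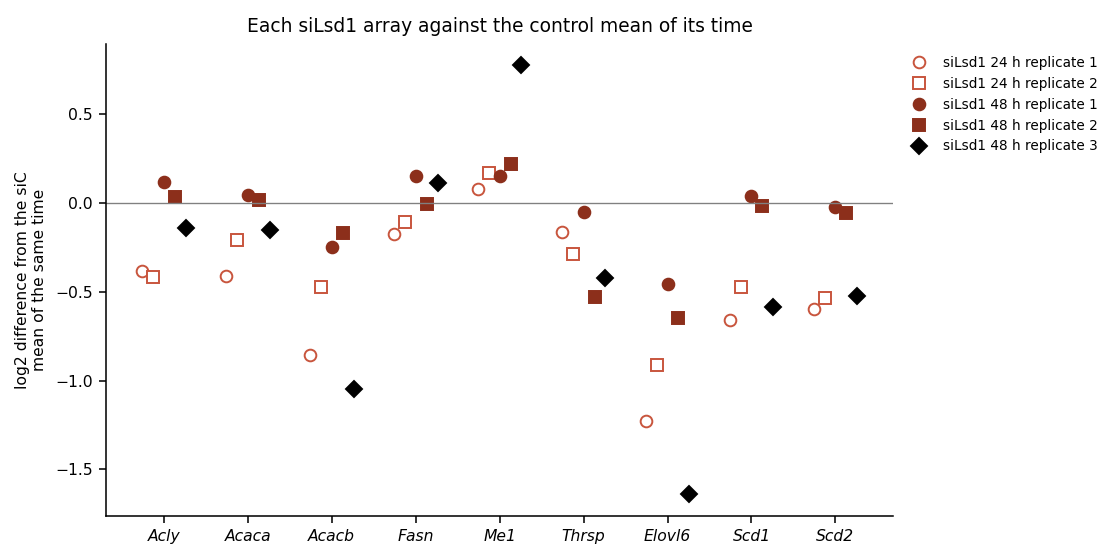
Log2 difference of each siLsd1 array from the mean of the siC arrays of the same time (vertical axis) for the 9 measured members; open symbols are 24 h arrays, filled brown symbols 48 h replicates 1 and 2, and the black diamond 48 h replicate 3. For Scd1 the diamond stands at -0.58, beside 24 h values of -0.66 and -0.47, while 48 h replicates 1 and 2 stand at 0.04 and -0.02.

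Leaving out siLsd1 48 h replicate 3 changed which members passed the test. At 24 h, 6 of the 9 were then called lower (Acly, Acaca, Acacb, Elovl6, Scd1 and Scd2), against 15.3% of all genes. The 24 h values themselves do not use that array, and it entered this comparison through the shared estimate of the spread. In a fit of the 24 h arrays alone the same 6 were called lower, against 13.9% of all genes, with adjusted p of 0.00036 for Scd2, 0.00078 for Elovl6 and 0.0396 for Acaca. Averaged over both times without replicate 3, 4 members were called lower, against 19.3% of all genes, and Me1 was called higher (log2 change 0.15, adjusted p = 0.0235), against 14.5% of all genes. The 4 were again Elovl6, Scd1, Scd2 and Acacb, at -0.81, -0.28, -0.30 and -0.44 on the log2 scale. At 48 h without it, Elovl6 was the called member, and the log2 changes of Scd1 (0.01, adjusted p = 0.938), Scd2 (-0.04, adjusted p = 0.696), Acacb (-0.21, adjusted p = 0.394) and Me1 (0.19, adjusted p = 0.0624) were not called.

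Whether siLsd1 acted differently at the 2 times was tested as the difference of its changes, 48 h minus 24 h. None of the 9 members was called (0 of 9, and 0% of all genes by limma, with 6.57% of all genes and Acly alone of the members at an unadjusted p under 0.05). Scd1 changed by -0.19 at 48 h and -0.57 at 24 h, a difference of 0.38 (95% interval -0.14 to 0.90, adjusted p = 0.883). Scd2 changed by -0.20 at 48 h and -0.57 at 24 h, a difference of 0.37 (95% interval -0.05 to 0.78, adjusted p = 0.82). For Acly the difference was 0.40 (95% interval 0.06 to 0.74, adjusted p = 0.663), and for Elovl6 it was 0.15 (95% interval -0.75 to 1.06, adjusted p = 0.986). Without siLsd1 48 h replicate 3, the 2 desaturases were called, with differences of 0.58 for Scd1 (adjusted p = 0.026) and 0.53 for Scd2 (adjusted p = 0.015), where 1.08% of all genes were called higher. The difference for Elovl6 was then 0.52 (adjusted p = 0.197). Kdm1a then changed by -0.35 at 48 h and -0.69 at 24 h, a difference of 0.34 (adjusted p = 0.0991). Whether the desaturase differences go with the size of the Kdm1a change was not tested.

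In siC cells, 6 of the 9 members were lower at 48 h than at 24 h and 0 were higher, where 12.2% of all genes were called lower and 12% higher. They were Acaca, Scd1, Me1, Scd2, Acly and Fasn, which include the carboxylase, the synthase and both desaturases. These siC arrays also serve as controls of the siLsd1 comparisons, and the median over the 9 genes was -0.42, against 0.01 over all genes.

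Acaca averaged 450.3 ± 2.26 at 48 h (SD, n = 3) and 696 ± 2.11 at 24 h (SD, n = 2), a log2 change of -0.63 ± 0.10 (SE, 1.55-fold lower, adjusted p = 0.00157). Scd1 averaged 843 ± 42.1 at 48 h and 1310 ± 13.7 at 24 h (log2 change -0.64 ± 0.16 SE, 1.55-fold lower, adjusted p = 0.019). Me1 averaged 571 ± 13.2 at 48 h and 879 ± 26.0 at 24 h (log2 change -0.62 ± 0.16 SE, 1.54-fold lower, adjusted p = 0.0183). For these genes the spread within a group was small beside the distance between the groups. Fasn (-0.35, adjusted p = 0.0151), Acly (-0.36, adjusted p = 0.0348) and Scd2 (-0.42, adjusted p = 0.0406) had smaller log2 changes. Elovl6 had -0.56 (adjusted p = 0.191), and Acacb and Thrsp had 0.08 and 0.14 with overlapping groups, none of them called.

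The Acaca call held with each of the 10 arrays left out. The others did not: Scd2 was lost without any one of the 5 siC arrays or either siLsd1 24 h array (adjusted p up to 0.219), Acly in 5 of the 10 fits (up to 0.273), Me1 and Scd1 in 3 each (up to 0.114 and 0.108) and Fasn in 2 (up to 0.123). Without siC 24 h replicate 2, Acaca was the single member still called.

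The remaining probe sets of the members entered a fit of all 45037 probe sets. There, 16 of the 19 brighter member probe sets had a negative change with siLsd1 at 24 h and 11 of 19 at 48 h. Of all genes tested in the main fit, 53% had a negative change at 24 h and 52.2% at 48 h. Several of the 19 belong to the same gene, so they are not separate members. Averaged over both times, 4 of the 19 were called lower and 1 higher, where 4.86% and 3.8% of all 45037 probe sets were. Dim probe sets count in those shares but not among the 19. Of the genes above the dim level, in the main fit, 13.7% were called lower and 10.1% higher. The 4 were both brighter probe sets of Scd2 (-0.38 and -0.59), the brightest of Elovl6 (-0.99) and the second of Acly (-0.20), and the 1 was the second of Me1 (0.34). Neither probe set of Scd1 was called, the brightest at -0.38 (adjusted p = 0.0697) and the second at -0.15 ± 0.18 (SE, adjusted p = 0.72). The third and dimmest of Scd2 had -0.06 ± 0.19 (SE, adjusted p = 0.895). Over time in siC cells 9 of the 19 were called lower. Of all probe sets, dim ones included, 5.94% were, and of the genes above the dim level 12.2% were in the main fit. The second probe set of Elovl6 had 150.0 and 179 in siLsd1 cells at 24 h, against 253 and 292 in siC cells, and at 48 h 159.5, 111 and 60.6 in siLsd1 cells, against 165, 192 and 141 in siC cells. Unlike the brightest one it overlapped at 48 h, with replicate 1 inside the siC range, and its log2 change there was -0.69 ± 0.29 (SE, adjusted p = 0.212).

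Of 19 regulators of the pathway tested, 0 were called with siLsd1 at 24 h, against 5.39% of all genes. Mlx, the partner of ChREBP, then had 0.59 (adjusted p = 0.0682) and the adipocyte factor Cebpa -0.45 (adjusted p = 0.282). At 48 h 1 of the 19 rose and 1 fell, a share near the 12.7% of all genes called. Mid1ip1, a relative of Thrsp that promotes carboxylase activity, had 1032, 1051 and 1227 in siLsd1 cells, against 781, 798 and 774 in siC cells (log2 change 0.49, adjusted p = 0.0072). Usf2, a factor that binds E-boxes, had 351, 365 and 210.2 in siLsd1 cells, against 439, 487 and 463 in siC cells (log2 change -0.63, adjusted p = 0.0496). In the mean of both times Mid1ip1 rose (0.30), and Usf2 (-0.53) and Cebpa (-0.55) fell, out of 19, where 10.1% of all genes were called higher and 13.7% lower. Srebf1, which encodes the SREBP of fatty acid synthesis, averaged 652 ± 32.7 in siLsd1 cells and 582 ± 12.9 in siC cells at 24 h, and 595 ± 14.7 in siLsd1 cells and 581 ± 6.24 in siC cells at 48 h. It was called in none of the 5 comparisons.

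Over time in siC cells 4 of the 19 regulators rose and 2 fell, where 12% of all genes were called higher and 12.2% lower. Srebf2, which encodes the SREBP of cholesterol synthesis, had -0.97 (adjusted p = 0.0274) and Mid1ip1 -0.50 (adjusted p = 0.00344). Stk11, the kinase upstream of AMPK, had 0.64 (adjusted p = 0.000885) and Mlx 0.58 (adjusted p = 0.0197). AMPK switches off acetyl-CoA carboxylase by phosphorylation, which arrays do not measure.

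Among 11 genes that supply citrate, acetyl-CoA and NADPH, 2 fell with siLsd1 at each time and 0 rose, where 2.79% of all genes were called lower at 24 h and 6.67% at 48 h. They were Idh1, a cytosolic source of NADPH, and citrate synthase (Cs). Idh1 had 1413 and 1485 in siLsd1 cells at 24 h, against 2089 and 2150.0 in siC cells (log2 change -0.55, adjusted p = 0.0221), and its 48 h change was -0.37 (adjusted p = 0.0297). Cs had changes of -0.39 at 24 h and -0.23 at 48 h (adjusted p = 0.0223 and 0.0458). Pgd, the NADPH source of the pentose phosphate pathway, rose in the mean of both times (0.47, adjusted p = 0.00917), with 3416 and 3387 in siLsd1 cells at 24 h, against 2378 and 2262 in siC cells. Its 48 h values were 2474, 2306 and 3468 in siLsd1 cells, against 2048, 2040.3 and 2094 in siC cells, with replicate 3 again nearest to the 24 h siLsd1 arrays. Over time in siC cells 2 of the 11 fell, Me2 (-0.66) and Aacs (-0.62), against 12.2% of all genes.

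Among 16 other genes of elongation and desaturation, Fads2, the desaturase that opens polyunsaturated fatty acid synthesis, was the 1 called at 24 h, against 5.39% of all genes. It had 437 and 450 in siLsd1 cells, against 603 and 572 in siC cells (log2 change -0.41, adjusted p = 0.0359). At 48 h it had 351, 377 and 368 in siLsd1 cells, against 465, 432 and 446 in siC cells (-0.29, adjusted p = 0.0352). The groups did not overlap at either time, and replicate 3 lay among the other siLsd1 arrays for this gene. At 48 h 2 of the 16 fell, Fads2 and the dehydratase Hacd2 (-0.46, adjusted p = 0.0338), and 1 rose, the ketoacyl reductase Hsd17b12 (0.31, adjusted p = 0.0493), where 6.67% of all genes were called lower and 6% higher. In the mean of both times Fads2 (-0.35) and Hacd2 (-0.33) fell and the elongase Elovl5 (0.20, adjusted p = 0.0163) rose, against 13.7% of all genes lower and 10.1% higher. Over time in siC cells 4 of the 16 fell and 1 rose: Hsd17b12 (-0.72), Fads3 (-0.57), Fads1 (-0.50) and Fads2 (-0.39) fell, and Cyb5a (0.59), the electron donor of the desaturases, rose, where 12.2% of all genes were called lower and 12% higher.

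Among 13 genes of mitochondrial fatty acid synthesis, thioester cleavage and fatty acid activation, 1 was called with siLsd1 at 24 h and 5 at 48 h, against 5.39% and 12.7% of all genes. Acot1, a cytosolic acyl-CoA thioesterase, had 116 and 136 in siLsd1 cells at 24 h, against 248 and 279 in siC cells (log2 change -1.06, 2.09-fold lower, adjusted p = 0.00865). Its 48 h values were 245, 229 and 311 in siLsd1 cells, against 253, 291 and 311 in siC cells, and it was not called. At 48 h 4 rose and 1 fell, against 6% of all genes higher and 6.67% lower. Acot2, its mitochondrial relative, had 1842, 1887 and 2574 in siLsd1 cells, against 1318, 1295 and 1298 in siC cells (0.67, 1.59-fold higher, adjusted p = 0.008). The acyl-CoA synthetases Acsl4 (0.59, adjusted p = 0.0348) and Acsl5 (0.27, adjusted p = 0.0282) were also higher, and Acot7 was lower (-0.29, adjusted p = 0.0224). In the mean of both times 4 rose and 2 fell, against 10.1% and 13.7% of all genes, led by Acot1 (-0.60), Acsl4 (0.52), Acot2 (0.43) and Acsl5 (0.23). Over time in siC cells 4 of the 13 fell, against 12.2% of all genes, led by Acsl3 (-1.12, 2.17-fold lower, adjusted p = 0.00684), Acot2 (-0.50), Ndufab1 (-0.29) and Acsl5 (-0.28).

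When the 48 h change was set against the 24 h change, no gene of these lists was called. The smallest p in each list belonged to Mid1ip1 (0.39) and Mlx (-0.57) among the regulators, Cs (0.16) and Me2 (0.28) among the supply genes, Cyb5a (-0.37) and Elovl4 (0.49) among elongation and desaturation, and Acot1 (0.93) and Acsl3 (1.00) among the last list. Without siLsd1 48 h replicate 3, Acot1 was called (0.80, adjusted p = 0.044).

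Leaving out that replicate ended none of the calls with siLsd1 in these 4 lists of 59 genes and added others. At 24 h, 7 were then called higher and 12 lower, against 0 and 4 with all arrays, where 10.1% of all genes were called higher and 15.3% lower without it. At 48 h, 9 were called higher and 10 lower, against 6 and 6 with all arrays, where 8.16% of all genes were called higher and 9.96% lower without it. Those added as higher at 48 h were Pgd (0.21, adjusted p = 0.0128), Elovl5 (0.19) and Fads3 (0.17). Those added as lower were Cebpa (-0.41), Lpin1 (-0.39), Hacd4 (-0.35) and Pparg, the master factor of fat cell formation (-0.22, adjusted p = 0.0174). The 48 h change of Usf2 was -0.37 without it (adjusted p = 0.00762), and those of Hacd2 and Hsd17b12 were -0.31 and 0.20 (adjusted p = 0.00754 and 0.028).

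**Figure D4:**
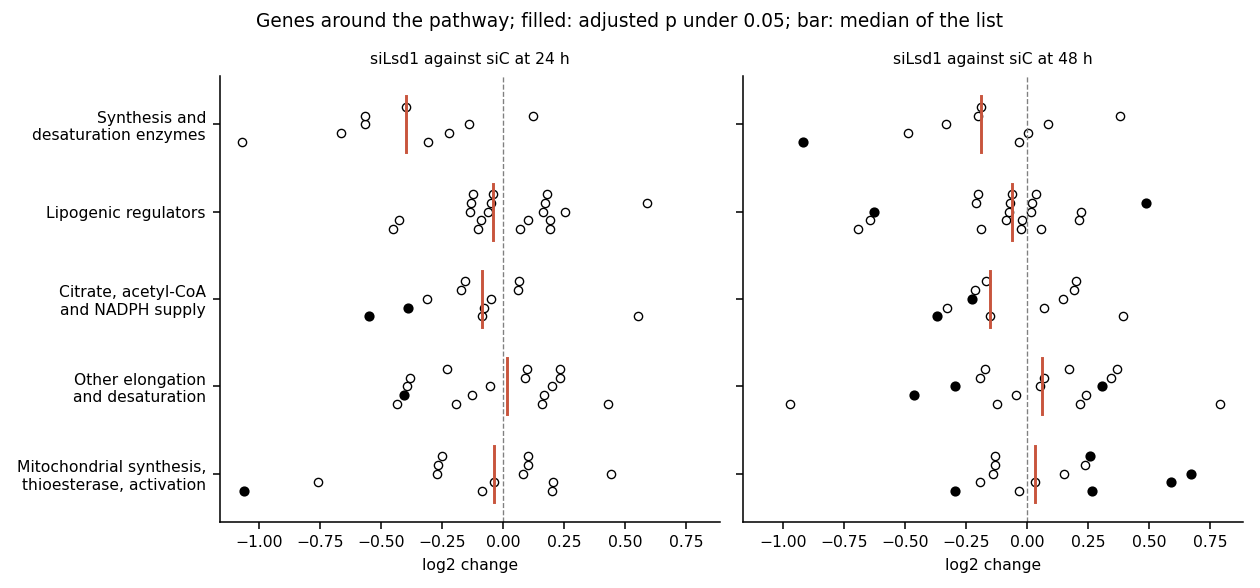
Log2 change (horizontal axis) with siLsd1 at 24 h and at 48 h for every tested gene of the pathway and of the 4 lists around it; each point is a gene, filled where its adjusted p was under 0.05, and the bar is the list's median. The medians of the synthesis and desaturation enzymes are -0.40 at 24 h and -0.19 at 48 h, and those of the other lists lie between -0.09 and 0.02 at 24 h and between -0.15 and 0.06 at 48 h.

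By the pattern of the 4 group means, centred on each gene's own mean, the genes most like Elovl6 were Npr3, P4ha3 and Galnt18, with root mean square log2 differences of 0.10, 0.11 and 0.11. Those most like Scd1 were Cacna2d3, Tpd52l1 and Tfdp1 (0.03, 0.03 and 0.05), and those most like Acacb were Eya1, Naalad2 and Add3 (0.01, 0.01 and 0.02). Npr3, for example, averaged 358 in siLsd1 cells and 677 in siC cells at 24 h, and 286 in siLsd1 cells and 540 in siC cells at 48 h. These 3 members had the largest range of group means, and the likeness rests on 4 points.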

How the data were processed

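Transcript levels were measured with Affymetrix arrays in 10 samples of mouse 3T3-L1 preadipocytes, which fall into groups by the siRNA and hour that their titles name. The deposited values are linear probe set intensities, 1 per probe set and array, from biotin-labelled cRNA of total RNA, per the labels' protocols. The authors' summary of probes, array normalization and genome build are not given in the sources used here. Such values can understate large changes, and an uneven array was not corrected further. No sample was removed or imputed, and 0 columns were left unused.

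Intensities were taken to log2 with no offset. The platform annotation named the probe sets (34945 with 1 gene symbol, 932 with several, 9160 with none listed). A gene was represented by its brightest probe set, and the dimmest 25% of genes (means up to 18.4 intensity units) were left out. With limma 3.58.1 (R 4.3.3; lmFit, eBayes with an intensity trend), group means were fitted to all 10 arrays, with 6 residual degrees of freedom. From these came 5 comparisons, each adjusted by Benjamini-Hochberg over 13644 genes and called under an adjusted p of 0.05. A separate fit covered all 45037 probe sets without a filter. Means ± SD are of linear intensities, and changes, SEs and 95% intervals are on the log2 scale. The fit was tested on simulated data in which a gene had the same spread on every array. That test cannot speak of an array that stands apart, as siLsd1 48 h replicate 3 does.

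Members are named whatever their values. From each list around the pathway, up to 4 called genes with the largest change are named in each comparison, or, with none called, up to 2 of the smallest p. Srebf1, and the genes added at 48 h without siLsd1 48 h replicate 3, were named after their values were seen. The members and lists were chosen with earlier results of these data known. Arrays that share a replicate number were not paired: across genes, their deviations from the group means correlated at -0.0737 at 24 h and between -0.19 and 0.0544 at 48 h. Alternatives were another choice of probe set, filter, normalization, offset, weights, moderation or arrays in the fit, a replicate block, siLsd1 48 h replicates 1 and 2 averaged, and each array left out in turn. Promoter windows came from a RefSeq table of GRCm38.p6 and were searched with Python 3.11.15, and figures were drawn with matplotlib 3.10.9.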

Additional observations from a re-analysis of the deposited data

How the results depend on the processing

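The number of members called moved with several settings. At 24 h, where 0 of 9 were called, it was 1 with the lowest 50% of genes left out, with quantile normalization, with 16 added to the intensity and with siLsd1 48 h replicates 1 and 2 averaged, 2 with arrays centred on the median, and 6 with array weights and with the 24 h arrays alone. At 48 h, where 1 was called, it was 0 with all probe sets, with probe sets averaged by gene, with no filter on dim genes, with no intensity trend and with the 48 h arrays alone, and 2 with array weights, which added Me1 as higher. For the mean of both times, where 4 were called, it was 2 with all probe sets, 1 with probe sets averaged by gene, 2 with no intensity trend and 7 with array weights. For the difference between the times, where 0 were called, it was 3 with array weights. All probe sets and the filters change the number of tests, the compared arrays alone change the estimate of the spread, and array weights change both the spread and the fitted values. What moved the counts was not tested further. Over time in siC cells, where 6 were called, these alternatives gave 4 to 7. With the 24 h arrays alone 13.9% of all genes were called lower at 24 h, against 2.79% in the main fit. For most other settings the share of all genes called is not given here. Their counts of members are thus not a result about the members.

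With the replicate number as a block within each time, 0 members were called at 24 h, 0 at 48 h, 2 in the mean of both times and 0 for the difference. The shares of all genes called in that fit are not given here. No paired fit was made for siC cells over time, since the numbers were given within a time. The fit of the compared arrays alone was not run for the mean of both times or the difference, which use all groups.

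With each array left out in turn, the count ranged from 0 to 6 at 24 h, 0 to 1 at 48 h, 1 to 5 in the mean of both times, 0 to 2 for the difference and 1 to 7 over time in siC cells. Without siLsd1 48 h replicate 3 these counts were 6, 1, 5, 2 and 7. The shares of all genes called with siLsd1 without that array are given above. For siC cells over time without it, and with any other array left out, the shares are not given. Those counts of members are thus not a result about the members.

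A member's change turned its sign in 26 cases, none of them called before or after, and the smallest adjusted p after the turn was 0.609. With probe sets averaged by gene, Acly had 0.0506 at 24 h and 0.0773 in the mean of both times, Thrsp 0.0882 at 24 h, Elovl6 -0.486 for the difference and Acacb -0.0369 over time in siC cells. For Acly that average takes in dim probe sets, with mean intensities of 10.2, 9.03 and 7.15. Its brighter probe sets had -0.40, -0.40 and -0.41 at 24 h. For Elovl6 it takes in a dim probe set (15.9) with a difference of -1.66, beside 0.15 and 0.05 in the brighter ones. With quantile normalization at 48 h, Acly had -0.00245 and Acaca 0.0352. With arrays centred on the median, Acaca had 0.0284 at 48 h, Fasn 0.000504 in the mean of both times and Acacb -0.0544 over time. With array weights, Acaca had 0.0200 and Scd1 0.0466 at 48 h, and Acacb -0.0430 over time. With siLsd1 48 h replicates 1 and 2 averaged, Acly had -0.0325 at 48 h and Elovl6 -0.0273 for the difference. With each array left out in turn, the 48 h changes ranged from -0.0565 to 0.0763 for Acly, -0.0676 to 0.0307 for Acaca and -0.301 to 0.0110 for Scd1. The differences ranged from -0.0159 to 0.455 for Acacb, -0.399 to 0.0596 for Thrsp and -0.0754 to 0.515 for Elovl6, and the change over time from -0.0267 to 0.432 for Thrsp.

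The 24 h groups hold 2 arrays each and share one estimate of the spread with the 48 h arrays. With that estimate 0 members were called at 24 h, where 2.79% of all genes were called lower. With the 24 h arrays alone 6 were called, where 13.9% of all genes were called lower. The dimmer members, Thrsp and Acacb, have the wider intervals beside Elovl6.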
